A study of Mus musculus with 39 samples.

Results

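The miR-302/miR-367 cluster is a run of microRNAs (miRNAs) that are cut from 1 shared transcript. Its members were taken by name: mmu-miR-302a, mmu-miR-302b, mmu-miR-302b*, mmu-miR-302c, mmu-miR-302d and mmu-miR-367, which are 6 of the 650 mouse miRNAs on the array. All 6 were measured on 39 arrays, and 5 of them (all but miR-302b*) were detected on each array of every group. The star marks the strand of the hairpin that usually accumulates less, so miR-302b* is the partner of miR-302b, and the other 5 members are called main strands here. The arrays also carried 2 further partner strands of the same hairpins, miR-302a* and miR-302c*, which are counted apart.

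Mouse embryonic stem cells (ESCs) were driven towards definitive endoderm, the germ layer that gives rise to the liver, pancreas and gut lining. The cells had been kept on mitomycin-treated mouse fibroblast feeders with serum and LIF, a cytokine that maintains self-renewal. Feeders were then removed by plating, and the cells were moved to collagen-coated plates in RPMI medium with B27 and, as the labels word it, sodium butyrate, which all 4 arms shared. Undifferentiated ESCs made up 1 group, and the 4 arms were each sampled on days 1, 3 and 5, which gives 13 groups of 3 arrays. The arms were Activin A at 100 ng/ml, Wnt3a at 50 ng/ml, both at these doses (Activin A plus Wnt3a, or the combination), and control medium with neither. Activin A signals through the Smad pathway in place of Nodal, and Wnt3a activates the canonical Wnt pathway. The labels do not say whether the 3 samples of a group came from separate cultures, so p-values measure only the spread between these samples, which may be technical. The cells are a bulk population of a single ESC line, and no mRNA was measured, so the cells could not be matched to a stage such as the primed epiblast through its protein-coding markers.

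In the early embryo and in ESCs, the miR-302 miRNAs are known for pairing through their seed, the bases near the 5′ end that find target mRNAs, with transcripts of cell cycle inhibitors and of Lefty, a secreted inhibitor of Nodal and Activin signalling. The miR-290 to miR-295 cluster carries a near-identical seed and is the dominant miRNA cluster of naive mouse ESCs, whereas the miR-302 cluster is best known from the later, primed epiblast. miR-367 sits at the end of the same transcript but has the unrelated seed of the miR-25 and miR-92 family.

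In the RefSeq annotation of GRCm38.p6, the 5 hairpins lie on the plus strand of chromosome 3 within 580 bases, chr3:127545228-127545807. Their order is Mir302b (chr3:127545228-127545301), Mir302c (chr3:127545363-127545430), Mir302a (chr3:127545496-127545564), Mir302d (chr3:127545624-127545689) and Mir367 (chr3:127545733-127545807), with gaps of 43 to 65 bases between neighbours. All 5 fall inside the span of the protein-coding gene Larp7 (chr3:127536714-127553349).

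A mature sequence was found by name for 5 of the 6 members, all but miR-302a, whose sequence was therefore not compared. They are shown first because the seed sorts the members and sets which other miRNAs they are compared with below. Each is written 5′ to 3′, and the capitals mark the seed, bases 2 to 8.
miR-302b: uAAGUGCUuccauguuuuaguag
miR-302d: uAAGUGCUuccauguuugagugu
miR-302c: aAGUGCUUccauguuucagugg
miR-367: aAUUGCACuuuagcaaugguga
miR-302b*: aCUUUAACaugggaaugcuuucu

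miR-302b and miR-302d have the same seed, AAGUGCU, and are identical at 20 of 23 bases. The annotated start of miR-302c lies 1 base further along, so its bases 2 to 8 read AGUGCUU, and with that offset it matches miR-302b and miR-302d at 20 of 22 bases each. The 3 share a run of 16 bases, aagugcuuccauguuu, which no other mature miRNA found in the RefSeq table contains. That search did not cover miR-302a, which was not found by name. With so few differing bases, the array may not separate these 3 strands fully, and whether it separates miR-302a from them was not examined. miR-302b* and miR-367 share neither seed with them.

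The seed AAGUGCU also occurs in 3 strands of the miR-290 to miR-295 cluster on chromosome 7, shown because they serve below as the comparison for the same seed.
miR-291a-3p: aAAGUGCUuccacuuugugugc
miR-294: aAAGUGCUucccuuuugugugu
miR-295: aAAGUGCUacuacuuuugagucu

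The seed of miR-367 recurs in miR-25, miR-32, miR-92a, miR-92b and miR-363 from other chromosomes or loci. miR-92a and miR-363 are shown as the pair that was compared most closely with it.
miR-92a: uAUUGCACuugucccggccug
miR-363: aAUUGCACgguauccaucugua

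A level here is the log2 of a signal after quantile normalization, with any signal under 2 set to 2, so that a difference of 1 is a 2-fold change. Because quantile normalization gives every miRNA of the same rank the same value, 9 of the 65 sets of 3 arrays of a main strand hold 3 identical values, and an SD of 0.00 has that origin. The 15 arrays of ESCs and day 1 detected 183 to 249 miRNAs and the 24 arrays of days 3 and 5 detected 254 to 375. The weakest detected signal was 3.62 to 5.10 on the former and 1.00 to 3.49 on the latter, so weak miRNAs are better resolved late. The group names of the Activin A arms have a limit. Arrays were assigned here by the scanner file of each sample, but in the value table deposited by the authors 18 columns, those of the combination and of Activin A alone, follow the rank order of each other's arrays. The labels do not settle which naming is right. Arms are named below by scanner file unless said, and by the column names the Activin A and combination values would exchange places. The main values and calls that change with the naming are given below. Wnt3a day 5 replicate 1 stood apart from its 2 partners. Its root mean square distance to them was 1.14, against 0.0769 to 0.348 for the 36 arrays of the other groups, and calls that change when it is left out are given below. The day 5 arrays and the day 3 arrays of the combination lay on slides that shared no group with those of the other arrays. These slides were also scanned on another date, so slide and scan date cannot be told apart from group between these sets. In bulk RNA, more cells of a type and more miRNA per cell cannot be told apart. A call means an adjusted p under 0.05 by limma with Benjamini-Hochberg adjustment over all miRNAs tested, together with more than 2-fold where that is said.

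All 6 members differed among the 13 groups by limma's F-test at that threshold, a threshold that 88.5% of the 373 miRNAs tested passed. Each main strand covered a wide range. miR-302a ran from a mean of 7.38 in Activin A day 1 to 11.59 in Activin A plus Wnt3a day 3, an 18.4-fold range. miR-302b, miR-302c and miR-302d had the same lowest and highest groups, with ranges of 23.4-, 22.6- and 20.5-fold. miR-367 was lowest in Activin A plus Wnt3a day 1 (6.64) and highest in Activin A day 3 (10.92), a 19.4-fold range. By the column names of the authors' table the Activin A and combination groups exchange places, so that the lowest and highest groups of the miR-302 strands would be the combination on day 1 and Activin A on day 3, and the reverse for miR-367. When the 13 groups were put in order of their means, neighbouring groups overlapped for miR-302a in 3 of 12 pairs, for miR-302b and miR-302c in 4, for miR-302d in 5 and for miR-367 in 9, so its finer order is the least certain.

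**Figure D1:**
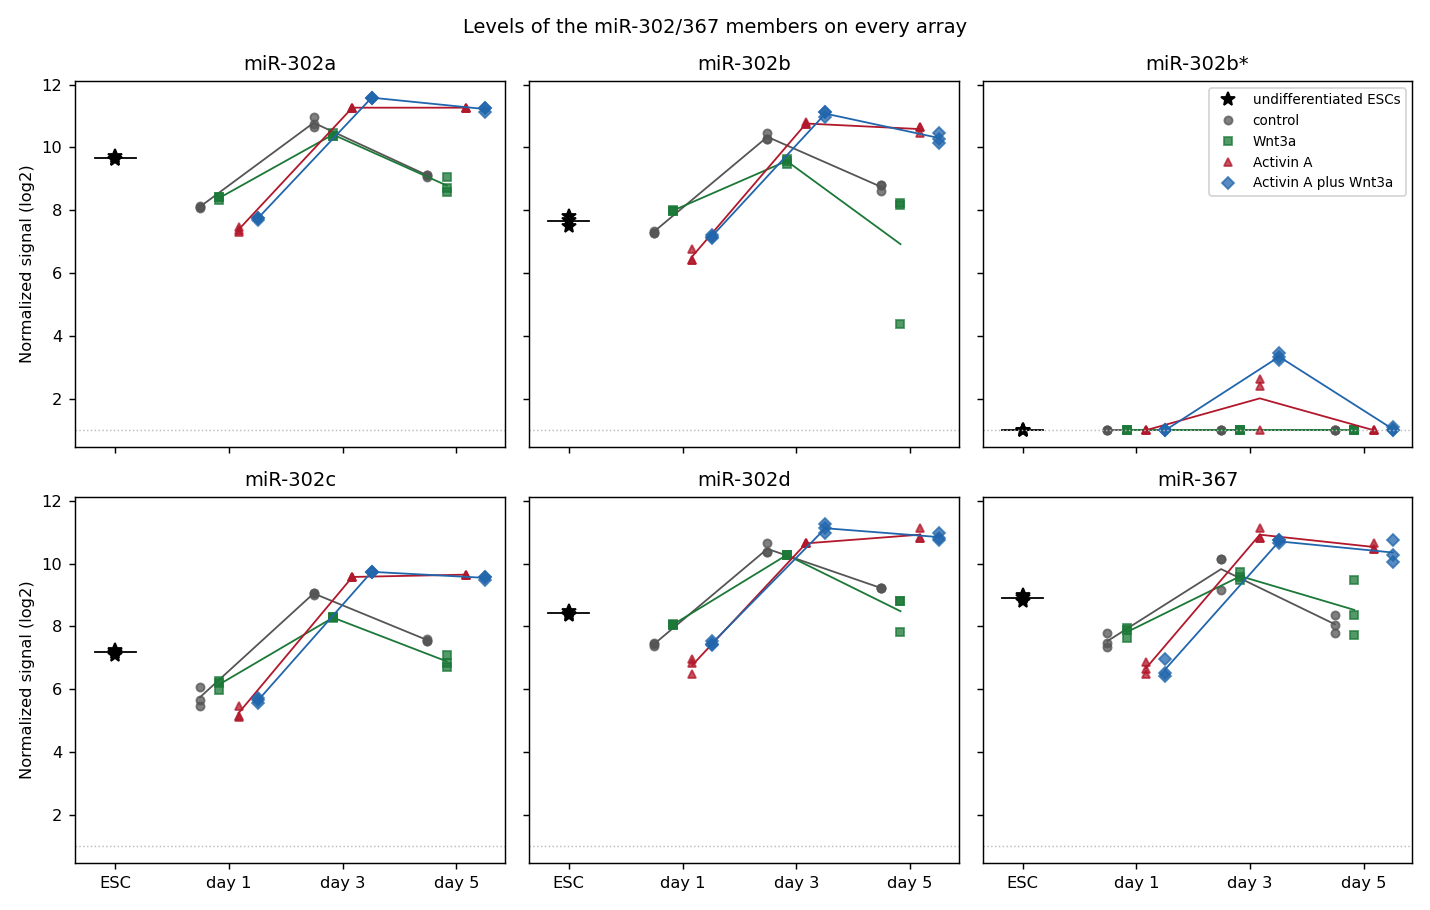
Normalized log2 signal of the 6 members on each array (points), with 1 panel a member, undifferentiated ESCs at the left and days 1, 3 and 5 of the 4 treatments after them; lines join group means and the dotted line is the floor at 1. Apart from miR-302b with Wnt3a, the means of the 5 main strands dip at day 1, all rise by day 3, and at day 5 the Activin A arms stay near the day 3 level while the control and Wnt3a arms drop; miR-302b* leaves the floor mainly at day 3 in the Activin A arms.

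On day 1 in control medium, 4 of the 5 main strands were lower than in undifferentiated ESCs. In ESCs, miR-302a was at 9.74, 9.65 and 9.65, and in day 1 control cells at 8.11, 8.07 and 8.15. The groups did not overlap, and the difference was -1.57 (SE 0.08, adjusted p = 2.15e-15 by limma). miR-302c differed by -1.44 (adjusted p = 4.37e-12), miR-367 by -1.39 (adjusted p = 2.63e-04) and miR-302d by -0.99 (adjusted p = 1.21e-05). miR-302b was at 7.49, 7.82 and 7.70 in ESCs and at 7.29, 7.36 and 7.29 in day 1 control. Its difference of -0.36 did not pass (adjusted p = 0.824), but its SE of 0.50 came from the Wnt3a day 5 array that stood apart, and without that array the adjusted p was 0.00157. Members more than 2-fold lower than in ESCs numbered 3 of 6 in control, where 8.04% of the miRNAs tested were called in that direction. They numbered 3 in Wnt3a (8.85%), 4 in Activin A (10.2%) and 3 in Activin A plus Wnt3a (9.38%). Without the array that stood apart miR-302b joined them in Activin A (-1.14, adjusted p = 2.74e-11, against 0.0794 with it). The ESCs and the day 1 control arrays lay on the same slide.

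Between day 1 and day 3 all 5 main strands rose in every arm. In control medium miR-302a went from 8.11, 8.07 and 8.15 to 10.74, 10.64 and 10.98, a difference of 2.67 (SE 0.08, 6.38-fold, adjusted p = 1.06e-21 by limma). miR-302c went from 6.08, 5.67 and 5.48 to 9.07, 9.0 and 9.07, a difference of 3.31 (SE 0.10, 9.91-fold). No array of day 3 overlapped day 1 for either miRNA.

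The rise over the 5 main strands was 4.90- to 9.91-fold in control, 2.98- to 4.64-fold in Wnt3a, 14.7- to 20.2-fold in Activin A and 12.7- to 17.1-fold in Activin A plus Wnt3a. Every one of these rises passed the test at more than 2-fold. The Wnt3a arrays of day 1 and day 3 lay on different slides. With slide as a block, and with the array that stood apart kept, miR-302b did not pass there (1.48, adjusted p = 0.225 by limma). The other 4 strands passed. All 5 passed in control and in Activin A. In the combination no group links the slides of day 1 and day 3, so slide cannot be told apart from day there. The background was high, since of the 373 miRNAs 32.2% were also called higher in control, 29.5% in Wnt3a and 27.3% in each arm with Activin A. The median rise was 3.03 over the main strands and 0.50 over all miRNAs tested in control, and 4.23 and 0.24 in Activin A. With Activin A the strands started lower on day 1 and ended higher on day 3 than in control.

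From day 3 to day 5 the arms separated. In control, Wnt3a and Activin A the day 3 and day 5 arrays lay on slides that no group links and were scanned on different dates. Slide, scan date and day therefore cannot be told apart in these arms. In control, all 5 main strands fell, by 1.25 to 1.76 on the log2 scale, and each passed at more than 2-fold, against 8.31% of miRNAs called lower. In Wnt3a, all 5 fell more than 2-fold, with differences of -2.65 to -1.07, against 12.3% called lower. Without the array that stood apart the Wnt3a differences were -1.37 for miR-302b and -0.68 for miR-367, the latter at an adjusted p of 0.0433 and under 2-fold.

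With Activin A, miR-302a was at 11.27 on all 3 arrays of day 3 and again on all 3 of day 5. The 5 main strands differed between those days by -0.39 to 0.28, and none passed. Without the array that stood apart, miR-302d (0.28, adjusted p = 0.0258) did. Under 12 other processing settings miR-302a ran from -0.42 to 0.00 and passed as lower in 3, while the other main strands passed in none. The only member called more than 2-fold lower was miR-302b*, against 2.68% of miRNAs, and its call rests on the floor. With Activin A plus Wnt3a the main strands differed by -0.78 to -0.19 and miR-302a alone passed (-0.36, adjusted p = 0.00166), again with miR-302b* the only member called more than 2-fold lower (0.804% of miRNAs). Without the array that stood apart, miR-302b (-0.78, adjusted p = 1.63e-07) and miR-302d (-0.28, adjusted p = 0.0257) also passed there. Under the 12 other settings miR-302a ran from -0.75 to 0.00 in the combination and did not pass in 2. There miR-302b passed as lower in 1 setting, miR-302c in 3 and miR-302d in 2. The Activin A day 5 arrays link the slides of the combination on days 3 and 5. With slide as a block its 5 main strand differences were -0.86 to -0.12 and none passed. By the authors' column names the changes of Activin A and of the combination between these days would exchange places.

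Set against ESCs, the cluster was above its starting level on day 3 in every arm. The 5 main strands were higher by 0.91 to 2.67 in control, 0.68 to 1.90 in Wnt3a, 1.59 to 3.09 in Activin A and 1.79 to 3.41 in Activin A plus Wnt3a, and all 5 passed in each. The ESC arrays lay on a slide that held no day 3 array. With slide as a block 3 of the 5 passed in control and in Wnt3a, where miR-302b and miR-367 did not. In Activin A 4 passed, all but miR-302b. The blocked miR-302b differences were 2.25 in control, 1.45 in Wnt3a and 2.64 in Activin A. This fit kept the array that stood apart, with which the SE of miR-302b was 0.50 before blocking. A blocked fit without that array was not run. The combination could not be checked with slide as a block, since no group links its slide to that of the ESCs. Nor could any day 5 group, so slide cannot be told apart from group in these comparisons with ESCs. Main strands called more than 2-fold higher were 4 in control, 3 in Wnt3a, and all 5 in Activin A and in Activin A plus Wnt3a, beside 33.2%, 34.3%, 33.5% and 33.5% of all miRNAs. miR-302b* was also called in the last pair of arms, but its level in ESCs is only a bound, and no fold can be given. By day 5 none was called more than 2-fold higher in control (38.1% of all miRNAs) or in Wnt3a (36.2%), while 5 were in Activin A (35.7%) and 5 in Activin A plus Wnt3a (33.5%). The control day 5 differences from ESCs ran from -0.85 for miR-367 to 1.07 for miR-302b, and without the array that stood apart this miR-302b difference was called (adjusted p = 1.88e-11, against 0.0569 with it). Scaling each array by its 75th percentile turned the sign of miR-302a there, from -0.57 to 0.10. That scaling moved the median of all miRNAs in this comparison from 0.55 to 1.08.

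The question of the growth factors was asked on each day against control medium. On day 1 the main strands were lower with Activin A. miR-302a was at 7.38, 7.46 and 7.31 with Activin A and at 8.11, 8.07 and 8.15 in control, a difference of -0.73 (SE 0.05, adjusted p = 4e-05 by limma). miR-302b differed by -0.78 (adjusted p = 5.95e-04), miR-302d by -0.66 (adjusted p = 0.00534) and miR-367 by -0.86 (adjusted p = 0.0321), while miR-302c differed by -0.50 and did not pass (adjusted p = 0.155). These 4 members were the 4 miRNAs of 240 called lower, 1.67% of those tested, and none differed 2-fold. On the slide that held 2 Activin A and 3 control arrays the 5 differences were -0.96 to -0.43, and in none of the 5 did the arrays overlap. Under the column names of the authors' table miR-302d differed by 0.029, and only miR-302a (-0.37) and miR-367 (-0.88) passed.

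With Wnt3a on day 1 the main strands lay above control by 0.28 to 0.68. miR-302b was at 7.98, 7.98 and 8.01 against 7.29, 7.36 and 7.29, a difference of 0.68 (SE 0.09, adjusted p = 0.00224). miR-302a and miR-302d also passed, 3 members against 10% of miRNAs called higher. With slide as a block the 5 differences were -0.02 to 0.62 and none passed; the 2 groups shared no slide. Under scaling to the 75th percentile of all miRNAs none of the day 1 F-tests of the members passed, with either factor, although 5 did in the quantile normalized data.

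Activin A plus Wnt3a on day 1 differed from control only for miR-302a (-0.37, adjusted p = 0.00113) and miR-367 (-0.89, adjusted p = 0.00919), against 12.5% called lower. The groups shared no slide, and with slide as a block miR-302b (-0.50, adjusted p = 0.00627) passed while miR-302a (-0.25, adjusted p = 0.132) and miR-367 (-1.20, adjusted p = 0.0902) did not. Under the authors' column names miR-302b (-0.77, adjusted p = 6.66e-04) and miR-302d (-0.65, adjusted p = 0.00553) passed as well. Compared with Wnt3a alone on the same slide, the combination was lower by 0.51 to 1.18 in the 5 main strands. All but miR-302c passed, and these 4 were among the 5 miRNAs called lower (2.08%). Under the authors' column names all 5 passed, at -1.45 to -1.03.

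**Figure D2:**
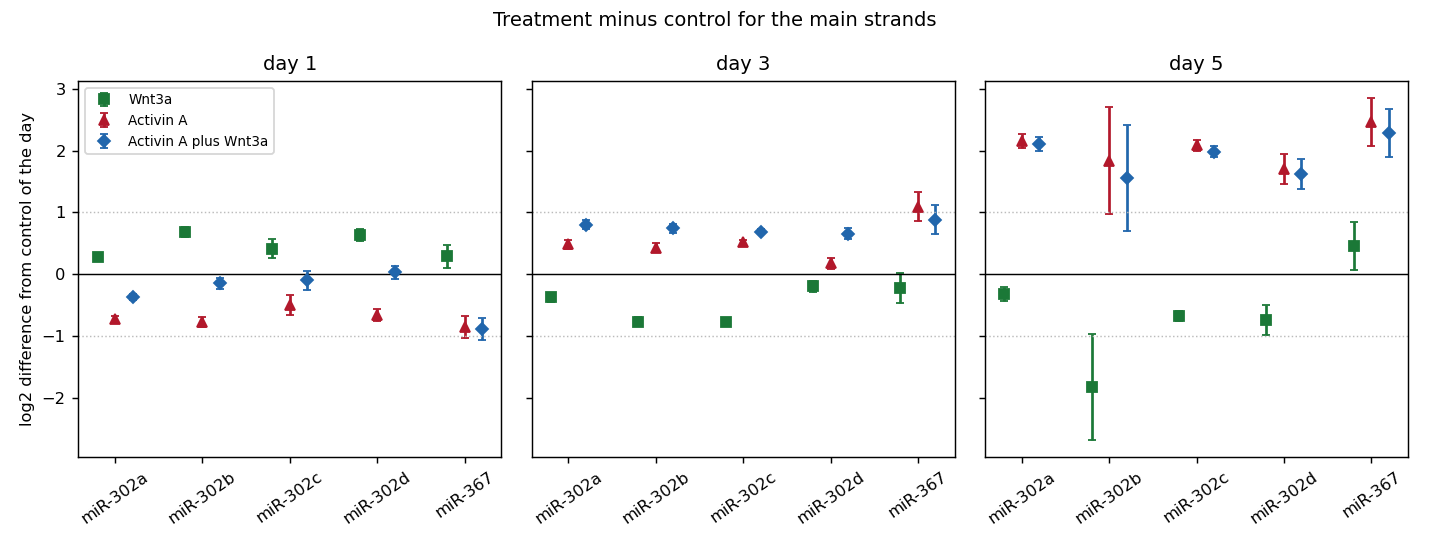
Difference from control medium of the same day (log2, y axis) for the 5 main strands on days 1, 3 and 5 with each factor alone and with both; bars are 1 SE of the limma fit and dotted lines mark 2-fold. Activin A sits below 0 on day 1, between 0.18 and 1.09 on day 3 and between 1.70 and 2.46 on day 5; the wide bars of miR-302b on day 5 come from 1 Wnt3a array.

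On day 3 the Activin A difference had turned. miR-302a was at 11.27 on all 3 Activin A arrays against 10.74, 10.64 and 10.98 in control, a difference of 0.48 (SE 0.08, adjusted p = 4.48e-04 by limma). miR-302b (0.42) and miR-302c (0.52) passed too, and miR-302d (0.18, adjusted p = 0.113) did not. miR-367 was at 10.81, 11.13 and 10.81 against 10.16, 10.16 and 9.16, a difference of 1.09 (SE 0.24, adjusted p = 0.00343). That makes 4 of 5 main strands, against 25.5% of the 326 miRNAs called higher. The fit also called miR-302b*, but control was at the floor, and the bound on its fold does not exceed 1. Under the authors' column names all 5 main strands passed, at 0.63 to 0.91. The slide with 3 Activin A and 2 control arrays gave 0.13 to 1.26.

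Wnt3a alone went the other way on day 3. miR-302b was at 9.57, 9.65 and 9.49 against 10.27, 10.27 and 10.47 in control, without overlap, a difference of -0.77 (SE 0.07, adjusted p = 5.42e-05). miR-302c differed by -0.77 (adjusted p = 9.49e-07) and miR-302a by -0.37 (adjusted p = 0.00435). miR-302d (-0.20) and miR-367 (-0.23) did not pass, so 3 of 6 members were called against 19.3% of miRNAs. The slide with 3 Wnt3a and 2 control arrays gave -0.80 to -0.06.

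With both factors, all 6 members were above control on day 3 (27% of miRNAs called higher), the main strands by 0.66 to 0.88. Under the authors' column names miR-302d did not pass there (0.23, adjusted p = 0.0949). All 6 were also above Wnt3a alone (23.0%), the main strands by 0.85 to 1.51. The combination on day 3 shared no slide with another day 3 group, so slide and treatment cannot be told apart in either comparison.

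On day 5 the Activin A difference was at its widest. miR-302a was at 11.27 on all 3 arrays with Activin A and at 9.13, 9.07 and 9.13 in control, a difference of 2.15 (SE 0.11, 4.45-fold, adjusted p = 3.87e-07 by limma). miR-302c was at 9.65 on all 3 arrays against 7.54, 7.54 and 7.60, a difference of 2.09 (4.25-fold, adjusted p = 7.55e-08). miR-367 was at 10.47, 10.64 and 10.47 against 8.36, 7.80 and 8.05, a difference of 2.46 (5.51-fold, adjusted p = 8.20e-04). miR-302d differed by 1.70 (adjusted p = 3.93e-04). No array of these 4 overlapped between the groups.

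miR-302b was at 10.64, 10.47 and 10.64 with Activin A against 8.61, 8.82 and 8.82. Its difference of 1.84 had an adjusted p of 0.132 in the fit of all day 5 arrays and 6.68e-07 without Wnt3a day 5 replicate 1. Thus 4 of 6 members were more than 2-fold higher, against 13.6% of the 368 miRNAs, and the median was 2.09 over the main strands and -0.03 over all tested. On the slide with 2 Activin A and 3 control arrays the differences were 1.75 to 2.49. Under the column names of the authors' table they were 1.43 to 2.18, so the day 5 difference does not turn with the naming.

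With Activin A plus Wnt3a on day 5 the main strands were 1.55 to 2.28 above control, and 4 passed at more than 2-fold (15.5% of miRNAs), again all but miR-302b, whose adjusted p was 0.179 with Wnt3a day 5 replicate 1 and 1.65e-06 without it. The 2 groups shared no slide. With slide as a block the differences were 1.47 to 2.37 and 3 strands passed, with miR-367 at an adjusted p of 0.0573 by limma. Against Wnt3a alone, which shared a slide with the combination, all 5 were higher by 1.83 to 3.38 (13.9% called more than 2-fold higher). Without the array that stood apart they were higher by 1.43 (miR-367) to 2.64 (miR-302c), miR-302b by 2.10, and all 5 still passed.

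In the Wnt3a arm on day 5, miR-302b was at 4.37, 8.18 and 8.22 against 8.61, 8.82 and 8.82 in control. The unnormalized signals were 25.2, 563.3 and 411.2, so 1 array set the mean and SD of 6.92 ± 2.21 (n = 3). Only miR-302c passed against control (-0.68, adjusted p = 0.00164), where 2.72% of miRNAs were called lower. Without that array miR-302a (-0.46), miR-302b (-0.55), miR-302c (-0.65) and miR-302d (-0.40) all passed, at adjusted p-values of 7.42e-04 to 0.0188, and miR-367 lay at 0.86 (adjusted p = 0.0821). Wnt3a and control shared no slide on day 5. With slide as a block and all arrays kept, the differences of the 5 main strands were -1.91 to 0.545 and none passed. The fit without that array was not blocked by slide.

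Whether Wnt3a added to Activin A was examined by setting the combination against Activin A alone. By scanner file, the combination was above Activin A on day 1 for miR-302a (0.36, adjusted p = 0.00248), miR-302b (0.63, adjusted p = 0.00248) and miR-302d (0.69, adjusted p = 0.0035), 3 members against 5.83% of miRNAs. miR-302c (0.40) and miR-367 (-0.03) did not pass. Only 1 Activin A array of day 1 shared a slide with the combination. With slide as a block the 5 day 1 differences were -0.24 to 0.54, and 2 passed. On day 3 the combination was above Activin A by 0.16 to 0.48 in the 4 miR-302 main strands, and all 4 passed (15% of miRNAs), as did miR-302b*, which was at the floor on 1 Activin A array. For miR-302a and miR-302c scaling to the 75th percentile of all miRNAs gave -0.064 and -0.029. The combination on day 3 shared no slide with another day 3 group, so slide and treatment cannot be told apart. Read by the column names of the authors' value table, the combination was below Activin A for the members that passed, at -0.68 to -0.36 on day 1 (miR-302a, miR-302b and miR-302d) and at -0.53 to -0.15 on day 3 (the 4 miR-302 main strands). On day 5 the differences from Activin A were -0.29 to -0.05 and no member passed (4.89% of miRNAs did in either direction). By the authors' column names they were 0.055 to 0.34.

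The test of whether the Wnt3a effect differed with and without Activin A, the interaction, gave no member on day 1. On day 3 it was higher for miR-302a (0.69, adjusted p = 0.00223), miR-302b (1.08, adjusted p = 1.49e-04), miR-302c (0.93, adjusted p = 4.34e-06) and miR-302d (0.68, adjusted p = 0.00509), 4 members against 11.3% of miRNAs. For miR-367 it was 0.01 (SE 0.34, adjusted p = 0.994). Because the combination on day 3 shared no slide with another day 3 group, slide cannot be told apart from the day 3 interaction. On day 5 only miR-302c passed (0.57, adjusted p = 0.0357, 1.63% of miRNAs), and with slide as a block none did. Without the array that stood apart miR-302a (0.42, adjusted p = 0.011) passed too. By the authors' column names the interaction was lower on day 1 for miR-302a (-0.68, adjusted p = 2.63e-04), miR-302b (-1.30, adjusted p = 1.57e-04), miR-302c (-0.91, adjusted p = 0.0207) and miR-302d (-1.34, adjusted p = 2.63e-04). On day 3 by those names only miR-302c passed (0.63, adjusted p = 3e-05), and miR-302d was at -0.30 (adjusted p = 0.152). The interaction on days 1 and 3 therefore depends on the naming.

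**Figure D3:**
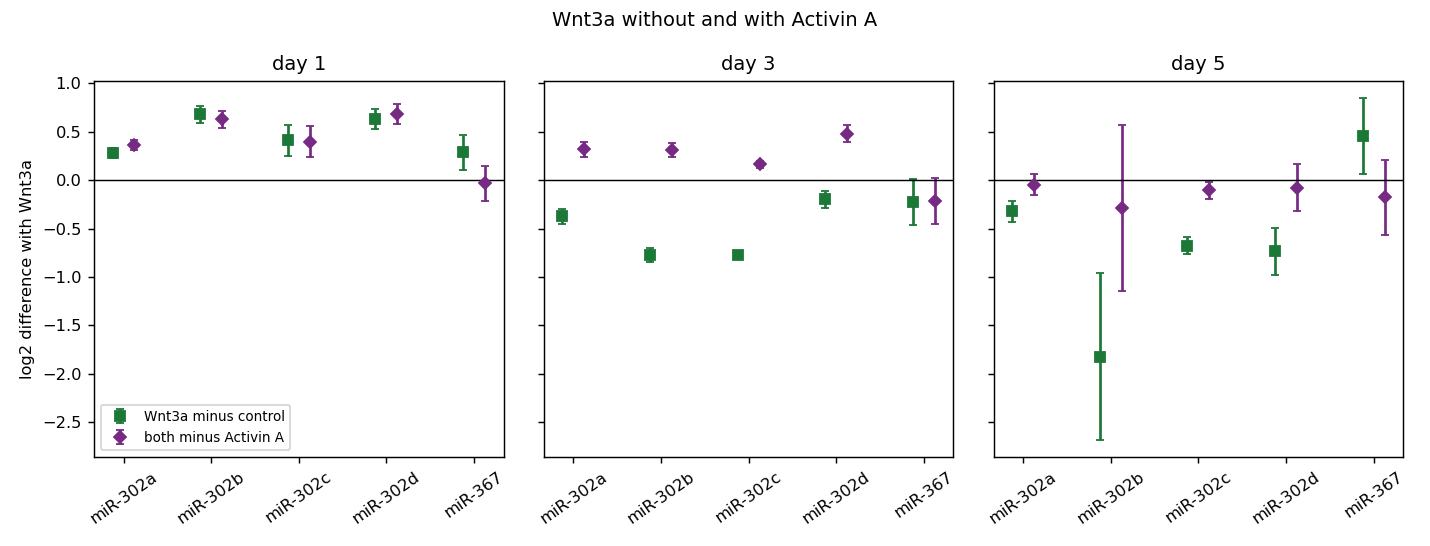
Effect of Wnt3a on the main strands (log2 difference ± 1 SE) by day, in control medium (Wnt3a minus control) and in the presence of Activin A (combination minus Activin A), with arrays assigned by scanner file. The combination arrays of day 3 shared no slide with another day 3 group. On day 3 the miR-302 strands are below 0 in control medium and above 0 with Activin A, and on day 1 they are above 0 in both; miR-367 lies near or below 0 on day 3 in both.

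miR-302b*, the partner strand, was at the floor of 1.00 on every array of ESCs, day 1, control and Wnt3a. On day 3 it was detected on 2 of 3 Activin A arrays (2.41, 1.00 and 2.63) and on 3 of 3 arrays of the combination (3.45, 3.34 and 3.23). Since its level in the other groups is only a bound, the combination was at least 1.91-fold above control and at least 3.48-fold above Wnt3a on day 3. The limma fit, which holds undetected arrays at the floor, gave adjusted p-values of 2.24e-04 and 3.06e-04, which do not test these bounds. No bound above 1 could be given against ESCs or day 1, where the weakest detected signals were higher than these values. On day 5 it was detected on 2 Activin A arrays and on 1 array of the combination, all at or near the floor. Its unnormalized signal was at most 16.6. The arms are named here by scanner file, and by the authors' column names Activin A and the combination exchange places. Read by those names, the authors' table gave day 3 differences from control of 2.22 with Activin A and 1.12 with the combination.

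The 2 other partner strands followed the same days. miR-302a* was detected in no array of ESCs or day 1 and in every array of days 3 and 5. Its day 3 level was at least 1.73-fold above day 1 in control, 1.39-fold in Wnt3a, 3.16-fold in Activin A and 5.20-fold in the combination. The limma fit against the floor gave adjusted p-values of 6.98e-18 or less, which do not test these bounds. On day 5 it was at 6.10, 5.99 and 5.97 with Activin A against 3.1, 3.2 and 3.25 in control, a difference of 2.84 (SE 0.26, adjusted p = 2.77e-05). It also fell in control from day 3 to day 5 (-2.14, adjusted p = 2.51e-12) and stood at 0.01 with Activin A (adjusted p = 1). miR-302c* was detected on all 3 arrays of the combination on day 3, at least 1.91-fold above Wnt3a. Its adjusted p of 0.00127 by limma is likewise against the floor. It was also detected on all 3 Activin A arrays on day 5, there at the floor after normalization. By the authors' column names the Activin A and combination values of miR-302a* and miR-302c* would exchange places.

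miR-367 departed from the miR-302 strands in some groups. The mean of its level minus the mean of the 4 miR-302 main strands was 0.68 ± 0.12 (SD, n = 3) in ESCs, 0.38 ± 0.19 in day 1 control, -0.36 ± 0.28 in the combination on day 1, -0.59 ± 0.30 in day 5 control and 0.76 ± 0.64 in day 5 Wnt3a. These differences describe how far the strands moved apart and not which was more abundant, since each miRNA has its own probes. Across the 13 group means the main strands correlated pairwise with r of 0.92 to 0.99, the lowest for miR-302b with miR-367. The points share arrays and normalization.

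The miR-290 to miR-295 cluster, of which miR-291a-3p, miR-294 and miR-295 share the seed of miR-302b and miR-302d, behaved differently in time. Its medians and counts cover all its tested strands, also those with other seeds. In control, the median of its 13 tested miRNAs differed by -1.57 from day 1 to day 3, where 12 passed as lower and none as higher, while the 5 main strands of miR-302/miR-367 all rose. It then differed by -1.07 from day 3 to day 5, and on day 5 its median was -2.42 relative to ESCs, with 11 of 13 more than 2-fold lower. Of its strands with the seed AAGUGCU, miR-291a-3p differed by -2.39, miR-294 by -2.10 and miR-295 by -1.61 between control day 5 and ESCs. On day 1 they differed by 0.00, 0.00 and -0.05. With each array scaled by the 75th percentile of the miRNAs detected on all arrays the day 5 values were -3.14, -3.04 and -3.03 and the day 1 values were -0.039, 0.35 and 0.38.

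With Activin A on day 5, both clusters were above control. miR-291a-3p was at 12.48, 12.48 and 12.18 against 10.04, 9.57 and 9.74, a difference of 2.60 (adjusted p = 4.16e-06). miR-294 differed by 1.96 and miR-295 by 1.61, and 10 of the 13 miRNAs were more than 2-fold higher, with a median of 1.61 beside 2.09 for the main strands of miR-302/miR-367. Against ESCs, however, Activin A day 5 was 0.20 for miR-291a-3p, -0.14 for miR-294 and 0.00 for miR-295, while the miR-302/miR-367 main strands were higher by 1.59 to 2.91. These values near 0 depend on the scaling. miR-294 was the brightest miRNA on 29 of 39 arrays and so could not move further under quantile normalization, and with each array scaled by the 75th percentile of the miRNAs detected on all arrays the 3 differences were -1.19, -1.53 and -1.31.

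**Figure D4:**
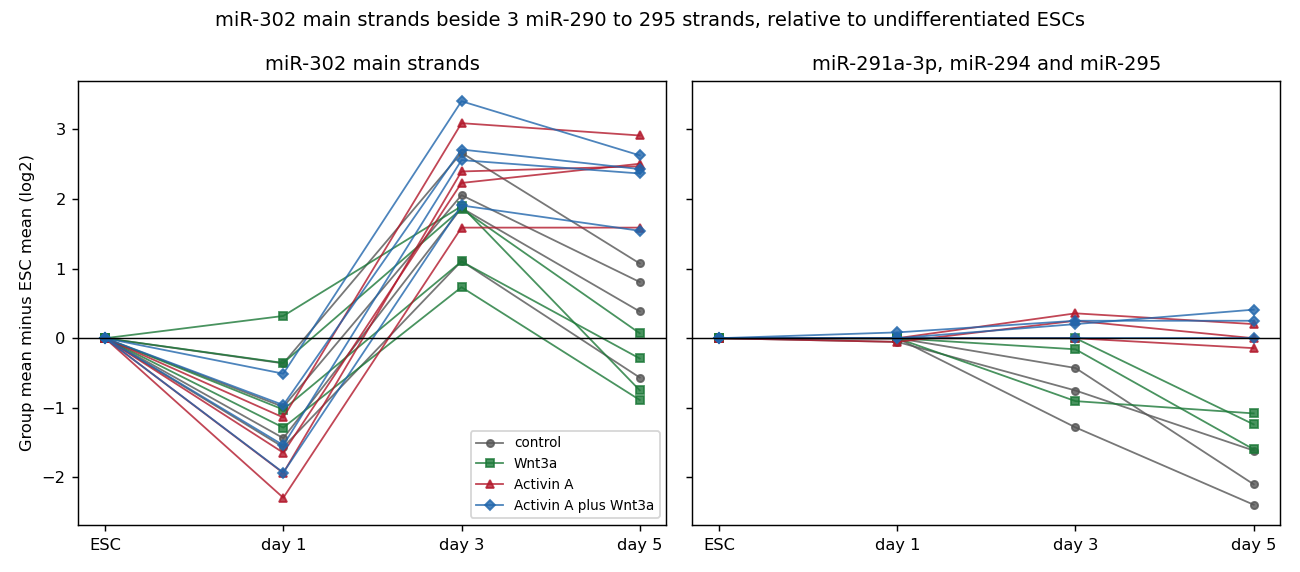
Group mean minus ESC mean (log2) for the 4 miR-302 main strands (left) and for miR-291a-3p, miR-294 and miR-295 (right) on days 1, 3 and 5 in the 4 arms. The miR-302 strands lie above ESCs on day 3 in every arm, whereas the miR-290 to miR-295 strands lie below ESCs in control on days 3 and 5 and near 0 with Activin A, under quantile normalization.

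Among the strands with the seed of miR-367 that are given here, the Activin A difference had no common direction. miR-92b is not among them. miR-92a, of the miR-17 to miR-92 cluster, was lower than control on day 3 (-1.20, adjusted p = 5.96e-06) and on day 5 (-1.35, adjusted p = 1.81e-04). miR-25 was lower on day 5 (-1.01, adjusted p = 0.00759). miR-363 was lower on day 3 (-0.38, adjusted p = 1.09e-04) and differed by 0.33 on day 5 (adjusted p = 0.283). miR-32 was detected on 3 of 3 Activin A arrays and on no control array on day 3. miR-367 itself was higher on both days.

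The 5 miRNAs whose 13 group means were most like the mean profile of the members, among 358 compared, were miR-376a* (r = 0.94), miR-224 (r = 0.94), miR-433* (r = 0.93), miR-539 (r = 0.91) and miR-421 (r = 0.91). With 75th percentile scaling the r values were 0.89, 0.92, 0.80, 0.73 and 0.89. These are descriptions over 13 means that share normalization.

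The separate probes of a main strand differed in the same direction, by unequal amounts. Without normalization, 2 to 4 probes per main strand gave Activin A minus control differences on day 5 of 2.32 to 2.35 for miR-302a, 2.59 to 2.80 for miR-302b, 2.44 to 2.51 for miR-302c, 2.07 to 2.19 for miR-302d and 3.1 for both probes of miR-367. On day 1 the probes detected gave -0.71 to -0.27. The control rise from day 1 to day 3 was less even, at 3.65 and 4.49 for miR-302a, 3.94, 4.78 and 7.02 for the 3 probes of miR-302b detected, 4.23 to 4.57 for miR-302c, 4.18 to 4.65 for miR-302d and 3.41 to 3.53 for miR-367.

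Marker miRNAs of other cell types also moved between these groups, and their part in the results was not tested. The summed log2 level of 8 feeder or mesenchymal miRNAs was 8.79 to 9.02 in ESCs, 9.88 to 10.02 on day 1, 3.52 to 5.45 on day 3 and 4.70 to 6.87 on day 5. In ESCs 4 of the 8 were detected on all arrays and 4 on none. The sum of 4 neural miRNAs was 9.55 to 9.94 in control day 5 and 9.5 to 10.84 in Wnt3a day 5, with all 4 detected, against 6.28 to 6.45 in Activin A day 5 and 5.13 to 5.33 in the combination. The list for endoderm and gut held 6 miRNAs, miR-375, miR-200a, miR-200b, miR-200c, miR-141 and miR-429. Their sum was already 8.22 to 8.42 in undifferentiated ESCs and 9.28 to 9.42 in control day 1. On day 5 it was 10.35 to 10.37 in Activin A and 10.33 to 10.41 in the combination, with all 6 detected. Control day 5 was at 6.87 to 6.89 and Wnt3a day 5 at 7.47 to 7.64.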

How the data were processed

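RNA of 39 samples, 3 per group, was hybridised to 1-colour Agilent miRNA arrays. The authors scanned them and extracted intensities (Feature Extraction 10.7.3.1 per the file headers, 9.5.3.1 per the labels), and the deposited intensity of each miRNA is the background-subtracted total gene signal, with a detection flag; it is set to 0.1 where nothing was measured. The deposited value table holds normalized log2 values by the authors and was used only as an alternative, as named and with its 18 exchanged columns matched by rank order.

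Signals were quantile normalized, floored at 2 and log2 transformed in R 4.3.3 with limma 3.58.1 (lmFit, eBayes; statmod 1.5.0 for correlations of a random block). A miRNA was tested if detected on at least 2 of 3 arrays in 1 group. Time and ESC comparisons used 1 fit of 39 arrays (373 miRNAs), and treatments used a fit per day of 12 arrays (240, 326 and 368). Called values passed an adjusted p of 0.05 (Benjamini-Hochberg over all miRNAs tested), with more than 2-fold where stated. No array spot was saturated, and the number of arrays limits the precision. Bounds compare the bright group with the weakest detected signal of the other, per array.

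The members and marker lists were chosen with earlier results of these data known. Named genes were the members, other strands of their hairpins, the miR-290 to miR-295 list, miRNAs with a member's seed, and the 5 miRNAs with the highest correlation to the members' profile. The fits were tested on simulated data with 60 known changes a day. Replicate numbers in the labels did not pair arrays: same-numbered arrays correlated at -0.062, 0.048 and -0.023 on days 1, 3 and 5. Mature sequences and coordinates are RefSeq, GRCm38.p6. Alternatives were other scalings, floors, filters, background correction, slide and replicate blocks and leaving out each array.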

Additional observations from a re-analysis of the deposited data

Results flagged for a closer look

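The difference between a treatment and its control changed from day to day for several members, tested as the difference of the 2 differences in the limma fit of all 39 arrays with Benjamini-Hochberg adjustment over all miRNAs. Each value below passed at an adjusted p under 0.05 and is the later day's treatment minus control difference less that of the earlier day, on the log2 scale. The share of all 373 miRNAs called in the same direction is given beside each set.

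For Wnt3a, day 3 less day 1 was -0.66 for miR-302a, -1.18 for miR-302c and -0.83 for miR-302d (4.83% of miRNAs lower). With slide as a block miR-302d did not pass (-0.56, adjusted p = 0.692). For Activin A, day 3 less day 1 was 1.21 for miR-302a, 1.03 for miR-302c, 0.83 for miR-302d, 1.95 for miR-367 and 1.01 for miR-302b* (10.2% higher). From day 3 to day 5 the Activin A difference grew by a further 1.67 for miR-302a, 1.56 for miR-302c, 1.52 for miR-302d and 1.37 for miR-367 (10.2% higher), whereas for miR-302b* it was -1.01 (40 of the 373 lower). With slide as a block miR-367 did not pass (1.23, adjusted p = 0.0656).

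For Activin A plus Wnt3a, day 3 less day 1 was 1.17 for miR-302a, 0.79 for miR-302c, 0.63 for miR-302d, 1.77 for miR-367 and 2.34 for miR-302b* (12.3% higher). From day 3 to day 5 the values were 1.31 for miR-302a, 1.30 for miR-302c, 0.97 for miR-302d, 1.40 for miR-367 (15.5% higher) and -2.31 for miR-302b* (12.9% lower). The combination on day 3 shared no slide with another day 3 group, so these values have no slide-blocked counterpart. The miR-302b* values rest on the floor in most groups. No miR-302b value passed in this fit. Without Wnt3a day 5 replicate 1, miR-302b passed at -1.45 for Wnt3a day 3 less day 1, at 1.20 and 1.42 for Activin A, and at 0.89 and 0.81 for the combination. All these values are by scanner file. They were not refitted by the authors' column names, under which the Activin A and combination values would exchange places.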

How the results depend on the processing

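For each comparison of 2 groups the counts here take members called at more than 2-fold, and for F-tests and interactions by the adjusted p alone, so some are lower than the counts by adjusted p alone given above. Of 517 counts under other settings, 461 stayed within 1.5 times the main count; the cause of the other shifts was not tested. Scaling to the 75th percentile of all miRNAs gave 0 members by the day 1 F-test instead of 5. It also gave 1 instead of 2 for Activin A against control day 3, 0 instead of 1 for Activin A day 3 to 5, for the combination against Wnt3a day 1 and for the interaction on day 5, 1 instead of 3 for Wnt3a day 1 against ESCs, 2 instead of 0 for Wnt3a day 5 against ESCs and 1 instead of 0 for control day 5 against ESCs. There miR-302d turned to -0.36 in Wnt3a day 5 against ESCs, and miR-302a and miR-302c to -0.064 and -0.029 in the combination against Activin A day 3. Scaling to the 75th percentile of the miRNAs detected on all arrays gave 2 members for control day 5 against ESCs (0 before), 2 for the combination against control day 3 and 1 on day 1 (1 and 0 before), 1 for Activin A against control day 3 and for Wnt3a day 1 against ESCs, and 0 for Activin A day 3 to 5 and the day 5 interaction. There miR-302a turned to 0.10 in control day 5 against ESCs and miR-302c to 0.037 in Wnt3a day 5 against ESCs.

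With normexp, 2 members were called for Activin A day 1 against ESCs (4 before), 3 each for day 3 to 5 in control and Wnt3a (5 before) and for the combination against Wnt3a day 3 (5 before), 1 each for control and Wnt3a day 1 against ESCs (3 before) and for Activin A against control day 3, and 0 for Activin A and the combination day 3 to 5, the combination against Activin A and control on day 3 and against Wnt3a on day 1, and the day 5 interaction. A floor of 10 and quantile normalization of log2 signals each gave 1 for Activin A against control day 3 and 0 for the combination against Activin A and control on day 3 and for day 3 to 5 in both arms, calls that include miR-302b*. Without a filter the counts were 1 for Activin A against control day 3, 1 for the day 1 interaction and 0 for the day 5 interaction, and with detection required on all 3 arrays the last was 0 too. One fit of all 39 arrays gave 1 member for Wnt3a against control day 5 (0 before).

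The authors' table read by its column names gave 1 for Activin A and 2 for the combination against control day 3, 0 for the combination against Activin A day 3, 5 for the combination against Wnt3a day 1, and 4 and 1 for the interactions of days 1 and 3 (0 and 4 before). It turned miR-302d to 0.029 in Activin A and -0.65 in the combination against control day 1. In the combination against Activin A it gave -0.36, -0.62 and -0.68 on day 1 for miR-302a, miR-302b and miR-302d, and -0.34, -0.33, -1.10, -0.15 and -0.53 on day 3 for miR-302a, miR-302b, miR-302b*, miR-302c and miR-302d. The interactions became -0.68 for miR-302a and -1.34 for miR-302d on day 1 and -0.30 for miR-302d on day 3. With its columns matched by rank order it gave 0 for the combination against Activin A day 3 and for the day 5 interaction.

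With the replicate number as a block the day 5 interaction gave 0 members (1 before) and no other count moved by over 1.5 times. With slide as a block the counts were 1 for Activin A against control day 3 and for Wnt3a day 1 against ESCs. The day 5 interaction gave 0. Where no group links the slides compared, slide was a random block instead, with a correlation of -0.0545, which does not remove slide differences. Control day 5 against ESCs gave 1 in that form. With single arrays left out, the counts were 0 to 2 members for Activin A against control day 3 and for the day 5 interaction, 1 to 2 for the combination against control day 3, and 0 to 1 for the combination against control day 1 and against Activin A day 3, Activin A day 3 to 5, and control and Wnt3a day 5 against ESCs. Without an array of that group miR-302b in Wnt3a day 5 against ESCs ran from -1.40 to 0.53, the latter without replicate 1. On ESC and day 1 arrays, signals under 3.62 to 5.10 could not be detected, which limits what can be said of the partner strands.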
